A study of Mus musculus with 6 samples.

Results

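The kynurenine pathway was examined in mouse pre-B cells that carried the BCR-ABL1 oncogene. The cells had been transduced with Cre to delete Ppp2r1a, or with an empty vector. Ppp2r1a encodes the scaffold of protein phosphatase 2A (PP2A). The 10 genes of the pathway were taken by name (Ido1, Ido2, Tdo2, Afmid, Kmo, Kynu, Haao, Qprt, Aadat and Kyat3), out of 19733 genes measured. For each gene the probe set annotated to that gene alone was read, and each of the 10 had 1 such probe set. The genes were put in this order by pathway step. The set was chosen by the measured log2 difference between the groups, in particular that of Kynu, so every difference given for these 10 genes is a description and not a test.

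All 6 arrays held bone marrow pre-B cells with floxed Ppp2r1a alleles that had been transduced with BCR-ABL1, the fusion kinase of Philadelphia chromosome-positive leukaemia. In 3 of them the cells had also been transduced with Cre, the recombinase that deletes the floxed gene. In the other 3 the cells had received an empty vector (EV). The labels give the genotype of the EV cells as wild type, but their cells carry the floxed alleles as well. None of the 6 arrays held Cre-transduced cells without floxed alleles, so effects of Cre itself and of the loss of Ppp2r1a cannot be told apart. The sources used here do not give the age or number of the mice, or the time after Cre. Repeats are numbered within each group, and nothing says that they were separate cultures or mice. The p-values therefore set each difference only against the spread of these arrays within their groups, moderated over all genes. That spread may be technical.

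Tryptophan that is not used for protein is broken down mainly along this route. Ido1, Ido2 and Tdo2 encode dioxygenases that open the indole ring to N-formylkynurenine. The formamidase encoded by Afmid turns that into kynurenine. Kynurenine is hydroxylated by Kmo, its side chain is split off by Kynu, the resulting 3-hydroxyanthranilate is oxidised by Haao, and Qprt leads the product, quinolinate, into NAD. Aadat and Kyat3 encode aminotransferases that divert kynurenine to kynurenic acid. In the immune system the pathway is best known from macrophages and dendritic cells, where interferon-gamma induces Ido1 and kynurenine acts on neighbouring lymphocytes.

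Values are log2 expression levels after RMA (robust multi-array average, which corrects background, equalises the distribution of the arrays and summarises probes), so a difference of 1 is a doubling. Array medians lay between 5.22 and 5.27. Probe sets differ in their affinity, so the level of a gene was set against the medians of the arrays only as a guide and not against that of another gene. Ppp2r1a read 7.12, 6.98 and 6.92 with Cre against 9.06, 9.05 and 9.06 with EV, 4.15-fold lower in Cre (limma adjusted p = 1.2e-05). Its probe set stayed above the array median in all 6 arrays, so a signal remained with Cre. Of 15 markers of pro-B and pre-B cells, 14 were measured, and each was above the array median in at least 1 array. Their mean level lay between 10.08 and 10.21 in Cre and between 10.44 and 10.48 in EV. Rag1, Rag2 and Dntt fell (Rag1 4.27-fold, Rag2 3.59-fold and Dntt 1.39-fold). These were 21.4% of the 14, against 3.49% of all genes at a limma adjusted p below 0.05. The other 11 did not pass, and the median difference of the list was 0.01. At an unadjusted limma p below 0.05, 2 of the 14 were higher and 4 lower, against 7.1% and 9.02% of all genes. The groups of 8 of the 14 did not overlap, against 22.5% of all genes. Dropping a single array ended the call of Dntt in 5 of 6 cases, all but Cre replicate 1 (limma adjusted p up to 0.108).

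Among the 10 genes Kynu, in the middle of the pathway, had the largest difference between Cre and EV. Kynu, which encodes kynureninase, read 5.11, 5.37 and 5.15 with Cre against 8.56, 8.87 and 9.14 with EV. All Cre arrays were far below all EV arrays, with a gap many times wider than the spread in either group. The means were 5.21 ± 0.14 in Cre and 8.86 ± 0.29 in EV (SD, n = 3), a difference of -3.64 on the log2 scale (SE 0.15), or 12.5-fold. Of the 19733 genes, 2 had a difference of this size or larger, Kynu included. In EV the gene stood well above the array medians. In Cre it stood at them, above the median in 1 array and below it in the other 2. Whether fewer cells carried the transcript or each cell carried less cannot be told apart in RNA from whole cultures. The EV arrays spread more than usual for this gene: 96.1% of genes had a smaller SD in EV, where the median SD was 0.10. With any 1 array left out the difference lay between -3.793 and -3.502.

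Haao, whose enzyme acts next in the pathway, was also lower in Cre, by much less. It read 5.57, 5.27 and 5.28 in Cre and 5.99, 5.98 and 5.74 in EV. The groups did not overlap, but the highest Cre array and the lowest EV array lay close together. The means were 5.37 ± 0.17 and 5.91 ± 0.14 (SD, n = 3), a difference of -0.53 (SE 0.11), or 1.45-fold. Haao was on the edge of the threshold: its limma adjusted p was 0.0432, and it was over the threshold when Cre array 2 or 3, or EV array 1 or 2, was dropped (adjusted p between 0.136 and 0.149, with differences between -0.497 and -0.481).

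Kynu and Haao were the 2 of 10 genes past limma's adjusted p of 0.05, and both were lower in Cre. Over all genes 3.49% passed (2.14% lower and 1.35% higher in Cre). Since the genes were chosen with this contrast known, nothing is read from that count. No gene of the 10 was called higher by limma. At an unadjusted p below 0.05, 0 of the 10 were higher and 2 lower, against 7.1% and 9.02% of all genes. The median difference of the 10 was -0.09, and 8 of the 10 were negative. Kynu and Haao were also the genes whose Cre and EV arrays did not overlap, which held for 22.5% of all genes (12.2% lower and 10.3% higher in Cre).

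**Figure D1:**
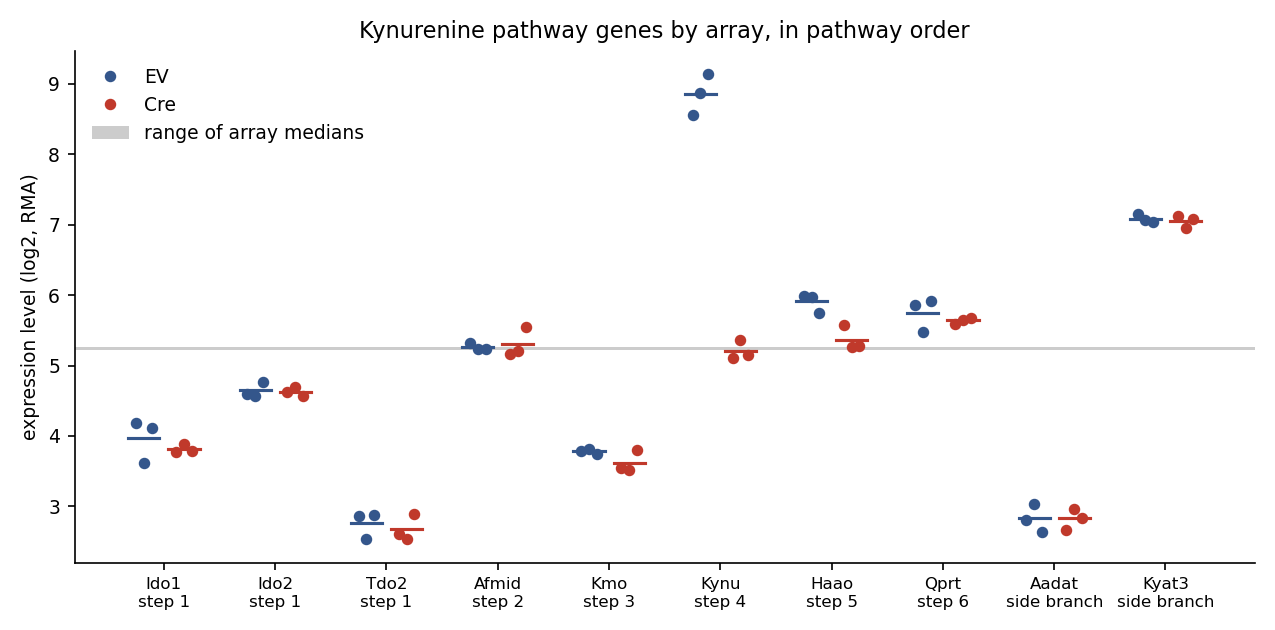
Expression level (log2, RMA) of the 10 kynurenine pathway genes in pathway order, with 1 point per array, EV in blue and Cre in red. Short lines are group means and the grey band is the range of the 6 array medians (5.22 to 5.27). Kynu drops from between 8.56 and 9.14 in EV to between 5.11 and 5.37 in Cre, while the points of Ido1, Ido2, Tdo2, Afmid, Kmo, Qprt, Aadat and Kyat3 overlap.

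The dioxygenases of the first step were dim in both groups. Ido1, the interferon-inducible enzyme, read 3.77, 3.89 and 3.79 in Cre and 4.19, 3.62 and 4.11 in EV. Its EV arrays lay on both sides of the Cre arrays, and its difference was -0.16 (SE 0.14). Ido2, its tandem paralogue on chromosome 8, read 4.63, 4.69 and 4.57 in Cre and 4.60, 4.57 and 4.76 in EV, with a difference of -0.01 (SE 0.08). Tdo2, the enzyme best known from liver, read 2.61, 2.53 and 2.89 in Cre and 2.86, 2.54 and 2.88 in EV. Its difference was -0.08 (SE 0.13), and the groups covered nearly the same range. All of these stood below the array median in all 6 arrays. For such dim probe sets a log2 difference understates a change in transcript, and a change at this level may not be seen.

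Kmo, the kynurenine hydroxylase that acts just before Kynu, was dim as well. It read 3.55, 3.51 and 3.80 in Cre and 3.78, 3.81 and 3.74 in EV. The Cre arrays 1 and 2 lay below the EV arrays and Cre array 3 within them, and the difference was -0.16 (SE 0.09). Afmid, the formamidase, stood at the array medians with 5.16, 5.21 and 5.55 in Cre and 5.32, 5.24 and 5.23 in EV. Its difference was 0.05 (SE 0.11), and Cre array 3 was its highest value.

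Qprt, which links the pathway to NAD, was above the array median in all 6 arrays and its groups overlapped. It read 5.59, 5.64 and 5.68 in Cre and 5.86, 5.47 and 5.92 in EV, a difference of -0.11 (SE 0.12). The Cre values lay inside the wider EV range.

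Of the aminotransferases of the kynurenic acid branch, Kyat3 was clearly above the medians and Aadat was dim. Kyat3 read 7.13, 6.95 and 7.08 in Cre and 7.15, 7.06 and 7.04 in EV, a difference of -0.03 (SE 0.07). Aadat read 2.67, 2.97 and 2.84 in Cre and 2.80, 3.03 and 2.64 in EV, with means of 2.83 in both groups. The groups overlapped for both genes. The 95% intervals of the 8 genes other than Kynu and Haao ran from -0.49 at the lowest to 0.30 at the highest, so differences of that size remain possible for some of them.

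**Figure D2:**
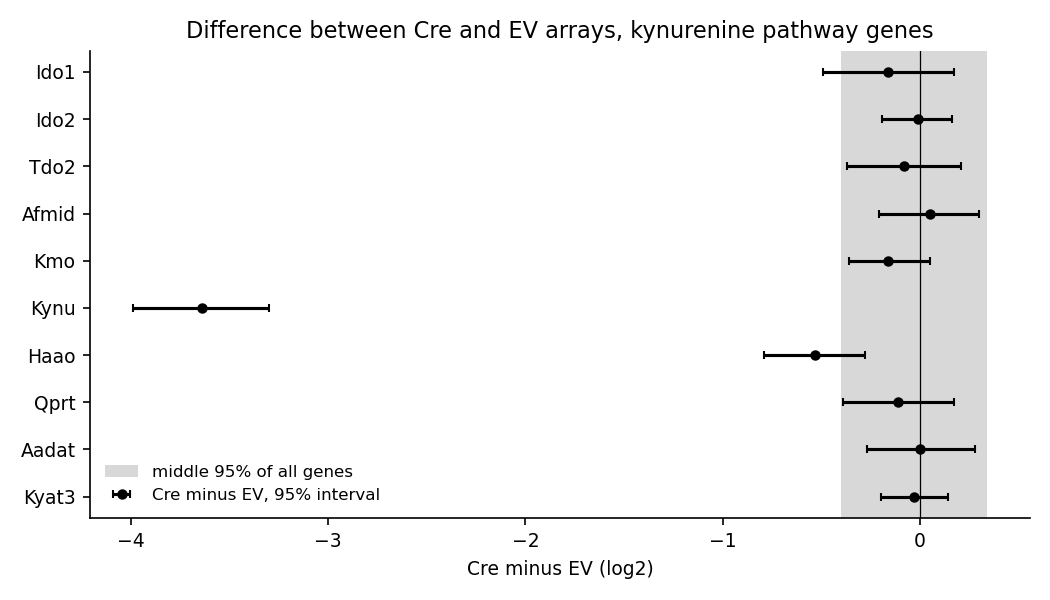
Difference between Cre and EV means (log2, horizontal axis) for each of the 10 genes, with limma's 95% interval. The grey band spans the middle 95% of the differences of all genes (-0.40 to 0.34): Kynu (-3.64) lies far outside it, Haao (-0.53) just outside, and the other genes lie within it.

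Promoter sequences are shown for Haao, lower in Cre and on the edge of the threshold, Tdo2, dim in all arrays, and Kyat3, steady and above the medians. RefSeq's promoter table (GRCm38.p6) held 7 of the 10 genes: Tdo2, Afmid, Kmo, Haao, Qprt, Aadat and Kyat3. Kynu, which had the largest difference, Ido1 and Ido2 were not in it. Each sequence is the 250 bases before the annotated start, written 5′ to 3′ on the gene's strand, with letters that match a searched motif in capitals. The windows are chr17:83846791-83847040, minus strand for Haao, chr3:81975729-81975978, minus strand for Tdo2, and chr3:142700798-142701047, plus strand for Kyat3.
Haao: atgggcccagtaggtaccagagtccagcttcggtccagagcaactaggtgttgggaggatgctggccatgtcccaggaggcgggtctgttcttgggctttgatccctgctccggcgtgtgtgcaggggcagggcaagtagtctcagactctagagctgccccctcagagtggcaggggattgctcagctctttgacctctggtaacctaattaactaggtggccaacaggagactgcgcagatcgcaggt
Tdo2: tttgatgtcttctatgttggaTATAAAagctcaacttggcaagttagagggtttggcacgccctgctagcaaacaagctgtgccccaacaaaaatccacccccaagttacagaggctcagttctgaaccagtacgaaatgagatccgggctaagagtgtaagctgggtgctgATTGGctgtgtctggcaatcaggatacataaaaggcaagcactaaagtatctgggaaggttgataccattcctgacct
Kyat3: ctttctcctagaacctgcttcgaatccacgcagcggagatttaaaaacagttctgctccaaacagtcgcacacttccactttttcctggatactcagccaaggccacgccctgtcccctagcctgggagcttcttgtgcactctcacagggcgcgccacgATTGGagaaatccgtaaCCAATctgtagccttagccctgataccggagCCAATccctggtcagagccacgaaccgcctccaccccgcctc
On both strands 5 motifs were searched. The TATA box was spelled TATAAA and was held by 12.4% of the 32851 windows in the table, the CCAAT box by 33.8%, and the GC box, spelled GGGCGG, by 32.7%. The E-box, spelled CACGTG, was held by 6.02%, and the FOXO core, spelled GTAAACA, by 3.17%. The matches shown do not overlap one another. Kyat3 had 3 CCAAT matches, which begin 90, 73 and 42 bases before the start, the first of them on the opposite strand, read as ATTGG. Tdo2 had a CCAAT match, also read as ATTGG, that begins 78 bases before the start and a TATAAA match that begins 229 bases before it. Afmid and Aadat had 1 GGGCGG match each. Haao, Kmo and Qprt held no match to these letters in this window. These matches are descriptions of sequence, and no relation to the expression values was tested.

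The genes around the pathway were described by 7 lists, of which 111 of 124 entries were measured. Of 15 measured genes of tryptophan and kynurenine transport, tryptophan tRNA charging and the amino acid sensor GCN2, 3 fell and 0 rose at a limma adjusted p below 0.05 (20%, against 3.49% of all genes), with a median difference of 0.00. At an unadjusted limma p below 0.05, 1 gene of that list was higher and 4 were lower (7.1% and 9.02% of all genes). Slc6a19, an epithelial carrier of neutral amino acids, read 3.71, 3.95 and 4.04 in Cre and 5.01, 5.19 and 4.85 in EV, and fell 2.17-fold (limma adjusted p = 0.00232). Slc36a4, a transporter of proline and tryptophan, went down from 5.07 ± 0.30 to 4.11 ± 0.14 with Cre (SD, n = 3), a fall of 1.95-fold (adjusted p = 0.0153). The groups of both genes did not overlap, which held for 5 of the 15 genes of the list and for 22.5% of all genes. Both were dim: Slc6a19 was below the array median in all 6 arrays and Slc36a4 in 5. Slc1a5, a bright exchanger of neutral amino acids best known for glutamine, averaged 10.86 ± 0.07 with EV and 10.17 ± 0.05 with Cre (SD, n = 3), 1.62-fold lower (adjusted p = 0.00172). The call of Slc36a4 was lost without Cre replicate 1 or Cre replicate 3 (highest adjusted p = 0.0639). Slc7a5 and Slc3a2, which together form the main tryptophan carrier of lymphocytes, differed by -0.16 (SE 0.10) and -0.29 (SE 0.08), and neither passed.

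In NAD synthesis, which Qprt feeds, 2 of 18 measured genes fell and 0 rose (11.1%, against 3.49% of all genes; median difference -0.01). At an unadjusted limma p below 0.05, 1 was higher and 3 were lower, against 7.1% and 9.02% of all genes. Both act on nicotinamide riboside. Nmrk1, the nicotinamide riboside kinase, read 5.94, 5.93 and 5.94 in Cre and 6.43, 6.64 and 6.40 in EV, 1.47-fold lower (limma adjusted p = 0.00976). Pnp, the purine nucleoside phosphorylase, which also splits nicotinamide riboside, averaged 10.97 ± 0.07 with EV and 10.57 ± 0.08 with Cre (SD, n = 3), 1.32-fold lower (adjusted p = 0.026). The arrays of Cre lay below those of EV for both. Non-overlap of the groups held for 4 of the 18 genes of the list, against 22.5% of all genes. Pnp has a near-identical copy, Pnp2, whose probe set is shared with another gene, so the split of signal between the copies is uncertain. Dropping a single array ended the call of Pnp in 5 of 6 cases, all but EV replicate 3 (limma adjusted p up to 0.0932). Nampt, which salvages nicotinamide, differed by -0.31 (SE 0.10) and did not pass.

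Another list held 14 further measured enzymes of tryptophan and kynurenine metabolism, including those of serotonin and melatonin. Of these, 1 fell and 0 rose (7.14%, against 3.49% of all genes), with a median difference of 0.05. At an unadjusted limma p below 0.05, 0 were higher and 1 was lower, against 7.1% and 9.02% of all genes. Maoa, the monoamine oxidase that breaks down serotonin, read 4.31, 4.38 and 4.18 in Cre and 5.11, 5.17 and 5.17 in EV, a fall of 1.82-fold (limma adjusted p = 0.000899). Its groups did not overlap, which held for 4 of the 14 genes of the list and for 22.5% of all genes. All 6 values lay below the array medians. Ddc, the aromatic amino acid decarboxylase, differed by 0.23 (SE 0.10; limma adjusted p = 0.328).

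A list of interferon and other inducers of Ido1 also held their signal chain, its inhibitors and genes induced along with Ido1. Of its 26 measured genes, 2 fell, 1 rose and 23 did not pass (11.5% called, against 3.49% of all genes), with a median difference of 0.02. At an unadjusted limma p below 0.05, 4 were higher and 4 lower, against 7.1% and 9.02% of all genes. Ifngr1, the ligand-binding chain of the interferon-gamma receptor, read 7.92, 7.91 and 7.69 in Cre and 8.29, 8.31 and 8.26 in EV, 1.37-fold lower (limma adjusted p = 0.0245). Tlr4, the receptor of bacterial lipopolysaccharide, averaged 7.88 ± 0.10 with EV and 7.44 ± 0.04 with Cre (SD, n = 3), 1.36-fold lower (adjusted p = 0.0195). Irf1, a transcription factor downstream of the interferons, went from 6.37 ± 0.08 to 6.77 ± 0.06 (SD, n = 3), 1.32-fold higher (adjusted p = 0.0256). The groups of these genes did not overlap, which held for 11 of the 26 genes of the list and for 22.5% of all genes. Dropping any single array ended the calls of Ifngr1 (limma adjusted p up to 0.0886) and Irf1 (up to 0.0958). That of Tlr4 ended in 5 of 6 cases, all but EV replicate 3 (up to 0.0797).

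No gene passed limma's adjusted threshold in the remaining lists. One held receptors of kynurenine and kynurenic acid, partners and typical targets of the aryl hydrocarbon receptor, which kynurenine activates, and related genes. Of its 15 measured genes, 2 were higher and 0 lower at an unadjusted limma p below 0.05, against 7.1% and 9.02% of all genes. Cyp1b1, such a target, read 4.53, 4.55 and 4.23 in Cre and 3.98, 4.09 and 4.12 in EV, a difference of 0.37 (SE 0.10; limma adjusted p = 0.102). Without Cre replicate 3 it passed (adjusted p = 0.0362). Ahr, the receptor itself, read 5.37, 5.24 and 5.11 in Cre and 4.86, 4.93 and 5.01 in EV, a difference of 0.31 (SE 0.09; adjusted p = 0.119). The Cre values of both genes lay above the EV values, and neither passed. Non-overlap of the groups held for 2 of the 15 genes, against 22.5% of all genes. Both genes were dim: Cyp1b1 was below the array median in all 6 arrays and Ahr in 5. Of 20 enzymes that consume NAD, 4 were higher and 1 was lower at an unadjusted limma p below 0.05, beside the same shares of all genes (7.1% and 9.02%). The groups of 7 of the 20 did not overlap, against 22.5% of all genes. Parp10 and Parp3, ADP-ribosyltransferases, differed by 0.24 (SE 0.07; limma adjusted p = 0.127) and 0.29 (SE 0.08; adjusted p = 0.129). Of 3 genes of pyridoxal phosphate, the cofactor of kynureninase and of the aminotransferases, 0 had an unadjusted p below 0.05. Pdxp differed by -0.18 (SE 0.08; limma adjusted p = 0.346) and Pdxk, the pyridoxal kinase, by -0.14 (SE 0.10; adjusted p = 0.561).

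**Figure D3:**
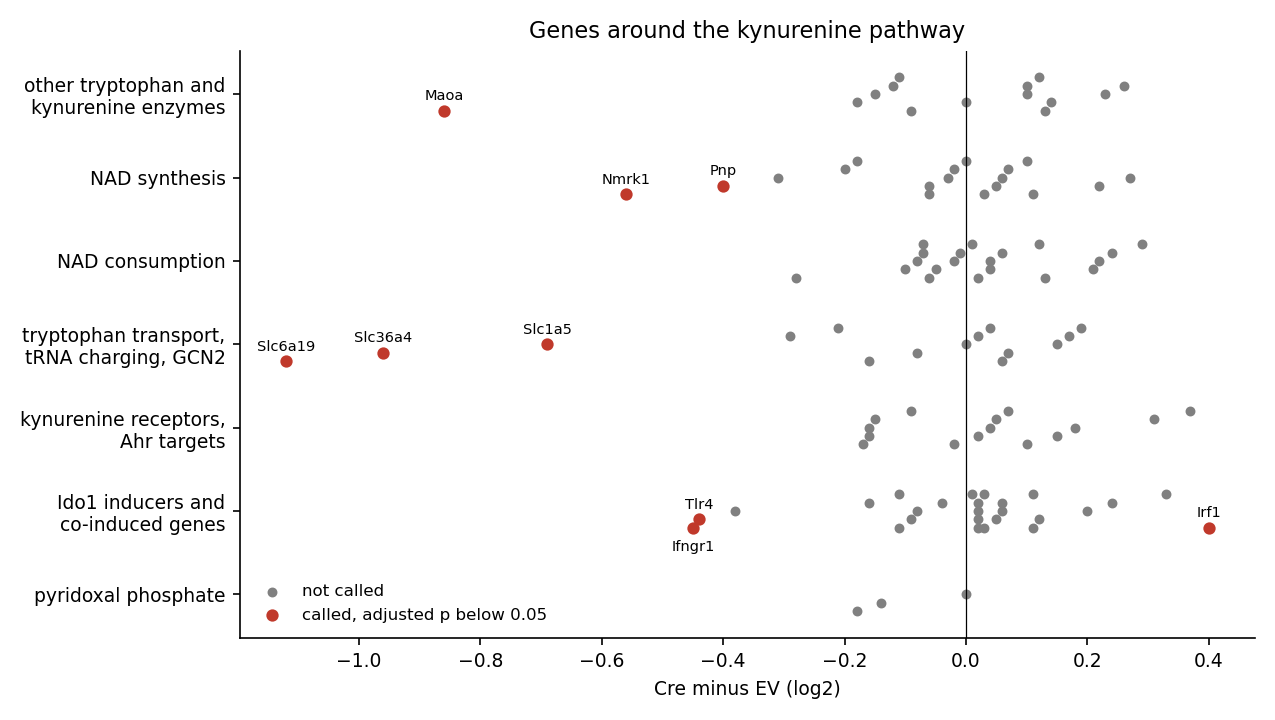
Difference between Cre and EV (log2, horizontal axis) for each measured gene of the 7 lists around the pathway, with 1 point per gene. Red points passed limma's adjusted p of 0.05 and are named: all of them but Irf1 (0.40) lie to the left of 0, the furthest being Slc6a19 (-1.12).

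The genes beside Kynu on chromosome 2 were read for comparison. The nearest tested genes by start on either side were Lrp1b, Ppp6c and Scai before it and Arhgap15, Gtdc1 and Zeb2 after it, and none of these 6 was called by limma. Their differences ran from -0.40 for Gtdc1 (SE 0.12), a glycosyltransferase-like gene, to 0.19 for Zeb2 (SE 0.06), a transcription repressor. At an unadjusted limma p below 0.05, Gtdc1 was lower and Zeb2 higher in Cre, as were 9.02% and 7.1% of all genes. Haao, on chromosome 17, had Mta3 and Zfp36l2 beside it, which differed by -0.23 (SE 0.08) and -0.27 (SE 0.08). Both were lower in Cre with an unadjusted limma p below 0.05 (0.0175 and 0.0122), and neither passed after adjustment (0.181 and 0.152). Their groups did not overlap, which held for 22.5% of all genes (12.2% lower in Cre). The other tested neighbours of Haao were Cox7a2l, Kcng3, Thada and Plekhh2. They differed by -0.06, -0.13, 0.06 and 0.02, and their groups overlapped.

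**Figure D4:**
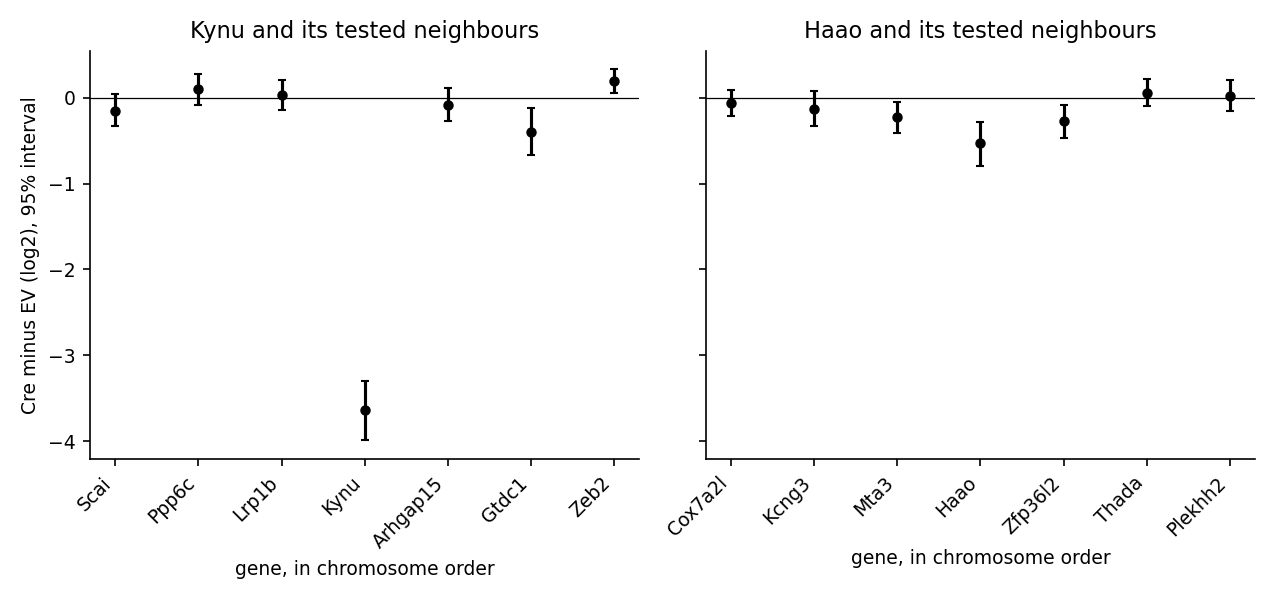
Difference between Cre and EV (log2, vertical axis, with limma's 95% interval) for Kynu (left) and Haao (right) and the 3 tested genes on each side, in chromosome order. Kynu lies at -3.64 while its neighbours lie between -0.40 and 0.19.

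The 5 named genes whose values followed Kynu most closely over the 6 arrays were Ppic, Ly86, Firre, Mt1 and Prr13. Gene models with Gm, Rik or LOC names, small RNAs, and olfactory and vomeronasal receptors were left out of this ranking. Likeness was the root mean square difference of values centred on each gene's own mean, so it weighs the size of the fall above all. It was 0.19 for Ppic, a cyclophilin, 0.30 for Ly86, the partner of the receptor Cd180, 0.37 for the non-coding RNA Firre, 0.39 for the metallothionein Mt1 and 0.53 for Prr13. Ppic read 4.61, 4.71 and 4.75 in Cre and 7.99, 8.45 and 8.17 in EV, a difference of -3.51 (SE 0.12). Mt1 averaged 7.52 ± 0.05 in Cre and 10.50 ± 0.10 in EV (SD, n = 3), a difference of -2.98 (SE 0.07), and was above the array medians in both groups. These genes were picked for their likeness, so their differences carry no test.

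**Figure D5:**
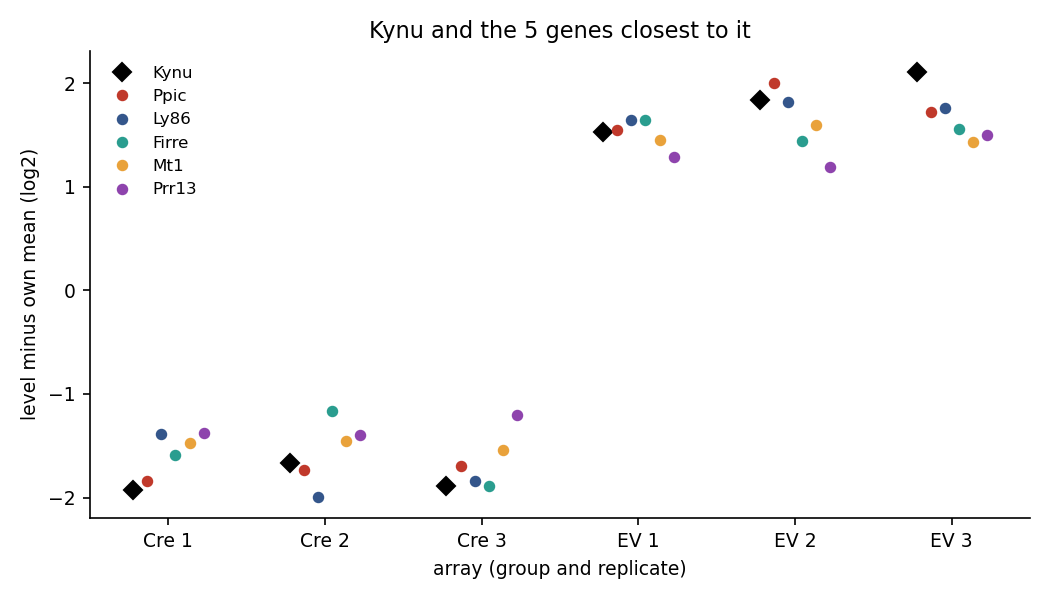
Levels of Kynu (black diamonds) and of the 5 closest named genes (coloured points) on each array (log2). Each gene's own mean over the 6 arrays was subtracted. All 6 genes lie below 0 in the Cre arrays and above 0 in the EV arrays.

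Most markers of cells that are known for this pathway were below the array medians in both groups. Of 15 markers of monocytes and macrophages, all were measured and 14 were below the array median in all 6 arrays. The mean level of the list was 3.95 ± 0.05 in Cre and 3.95 ± 0.04 in EV (SD, n = 3), and the lowest arrays read 3.90 and 3.91. At an unadjusted limma p below 0.05, 1 of the 15 was higher and 2 were lower, against 7.1% and 9.02% of all genes. Cd68, the marker above the array median in all 6 arrays, averaged 6.10 ± 0.14 in Cre and 6.46 ± 0.03 in EV (SD, n = 3). Its groups did not overlap, which held for 22.5% of all genes. It was lower in Cre, with a difference of -0.36 (SE 0.08, limma adjusted p = 0.0637). It passed without Cre replicate 1 (adjusted p = 0.0351) and not when another array was dropped (up to 0.192). Mpeg1 alone was called (6.67% of the list, against 3.49% of all genes). It read 2.88, 2.99 and 3.00 in Cre and 3.29, 3.70 and 3.48 in EV, 1.45-fold lower (limma adjusted p = 0.0401). Dropping a single array ended its call in 5 of 6 cases, all but EV replicate 1 (limma adjusted p up to 0.133). Of 10 markers of dendritic cells, 8 were below the array median in all 6 arrays, with mean levels between 4.63 and 4.66 in Cre and between 4.55 and 4.70 in EV. Ccr7 was above it in all 6, at 7.92 ± 0.03 in Cre and 7.86 ± 0.15 in EV (SD, n = 3). None of these 10 passed, and 1 was higher and 0 were lower at an unadjusted limma p below 0.05, against 7.1% and 9.02% of all genes. The part of such cells in the level of Kynu was not tested.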

How the data were processed

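The data were 6 one-colour Affymetrix arrays of total RNA (Qiagen RNeasy, per the labels' protocols), 3 per group, grouped by their titles. The authors deposited log2 values made with RMA, per the submitters' processing notes. The sources used here do not give its version. RMA equalises the arrays, so differences are relative, and detection calls played no part.

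Of 25006 probe sets, 21467 had 1 gene symbol, 1521 several and 2018 none in the platform annotation. Those with 1 symbol were kept, with symbols updated through gene identifiers (21386 matched RefSeq, GRCm38.p6). For 931 genes with several probe sets the highest mean over the 6 arrays was taken, which left 19733 genes. Cre and EV were compared with limma 3.58.1 in R 4.3.3 (lmFit, eBayes, no block, no filter), with Benjamini-Hochberg adjustment over all genes. SE and intervals are those of the moderated fit. Tables and figures used Python 3.11.15, pandas 2.3.3 and matplotlib 3.10.9.

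In data simulated for Cre against EV on 19733 genes, 52 of 100 changes of 0.5 log2 and 90 of 100 of 1 log2 were recovered, with 4 false calls. The simulated noise was normal and independent between genes, and the SDs of the genes were shuffled among them. Fewer genes were changed than were called in the data. These rates may therefore differ from those of the data, also for dim genes. The number of arrays limits the precision.

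The pathway's genes and the lists were chosen with earlier results of these data known. Named were Ppp2r1a, the 10 genes, the chromosome neighbours of Kynu and the 5 genes most like Kynu after the exclusions given above. Of each list, up to 4 called genes with the smallest p were named (or the 2 with the smallest p where fewer than 2 passed). Slc7a5, Slc3a2, Nampt, Mta3, Zfp36l2, Cox7a2l, Kcng3, Thada, Plekhh2, Clcn3, Galntl6, Cd68, Ccr7, Mpeg1, Rag1, Rag2 and Dntt were named after their values were seen. Alternatives were 9 settings of normalization, filter, variance model, array weights, replicate block and probe choice, and 6 fits with 1 array left out.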

Additional observations from a re-analysis of the deposited data

How the results depend on the processing

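The differences of Ppp2r1a and Kynu kept their direction and call in all 15 alternatives (9 settings and 6 fits with 1 array left out). With 1 array left out Ppp2r1a ranged from -2.107 to -2.011 and Kynu from -3.793 to -3.502. Kynu was chosen for its difference and every fit used these same arrays, so its kept call is a description and not a test. Haao kept its direction in all 15, from -0.634 to -0.481 with 1 array left out, but lost its call in 4 of those 6 fits, when the arrays were quantile normalized again (-0.515), with array weights (-0.512) and with all probes tested (-0.534), and the number of the 10 genes called lower was then 1 in place of 2. Its adjusted p lay between 0.00738 and 0.149. The cause was not tested.

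The 3 arrays of a group limit the counts: with 1 array left out, the genes called ranged from 138 to 169 higher and from 215 to 270 lower, against 267 and 422. With the lowest 50% of genes left out they were 537 and 758, and with a variance trend and robust eBayes 640 and 918. Among the lists, leaving out the lowest 50% gave 3 higher genes of NAD consumption, 1 of tryptophan supply and 2 of the Ido1 inducer list, and 0 lower further enzymes, since Maoa was then not tested. The trend gave 1 higher gene of NAD consumption and 2 of the inducer list, and leaving out the lowest 25% gave 2. With the mean of all probes of a gene 0 genes of that list rose. With 1 array left out, its calls ranged from 0 to 0 higher and from 0 to 1 lower. NAD synthesis genes then ranged from 1 to 2 lower and tryptophan supply genes from 2 to 3 lower. Genes of the list with the kynurenine receptors ranged from 0 to 1 higher.

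The repeat numbers did not pair the arrays: deviations of same-numbered arrays correlated with r of 0.01, -0.01 and 0.03. With the repeat number as a block, 157 genes were called higher and 268 lower, 1 gene of NAD synthesis lower, and 0 genes of the inducer list higher and 1 lower. Kynu and Haao kept their calls in that fit. Under the filters on low values Ido1, Tdo2, Kmo and Aadat, and at 50% also Ido2, gave no value.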

Other observations

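The genes next to the other enzymes of the pathway were examined in the same way as those of Kynu. Over all 10 genes there were 54 distinct tested neighbours, 3 on each side, and limma called 1 of them (1.85%, against 3.49% of all genes). It was Clcn3, a chloride and proton exchanger near Aadat on chromosome 8, which read 7.08, 7.06 and 7.05 in Cre and 7.49, 7.40 and 7.40 in EV, 1.29-fold lower (limma adjusted p = 0.0213). Its Cre arrays lay below its EV arrays, which held for 12.2% of all genes. Dropping any single array ended its call (limma adjusted p up to 0.082). Galntl6, on the other side of Aadat, read 3.76, 3.80 and 4.25 in Cre and 3.60, 3.66 and 3.54 in EV (0.34, SE 0.13; adjusted p = 0.261).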
